A study of Mus musculus with 15 samples.

Results

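The genes described here encode the heat shock chaperones of the cytosol and mitochondria and the proteins that work with them. They were chosen by symbol from the deposited gene table: the Hspa, Hspb, Hspd, Hspe and Hsph genes, the cytosolic Hsp90 genes, the J-proteins of classes Dnaja, Dnajb and Dnajc, the Cct subunits, Bag1 to Bag6, Hsf1 and Hsf2. Of 81 symbols that fit, the rule sets aside 4, among them the endoplasmic reticulum (ER) chaperones Hspa5, Dnajb9 and Dnajb11, which left 77 of the 16330 genes listed. The patterns also took in J-proteins of the ER, namely Dnajb12, Dnajb14, Dnajc1, Dnajc3 and Dnajc10, so not every member is cytosolic or mitochondrial. Cct6a was not analysed here. The test was run on 13570 genes with at least 10 normalized counts in at least 3 libraries, and 71 members were among them. The members below that level were Cct6b, Dnajb3, Dnajb7, Dnajc6, Hspb2 and Hspb9.

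Liver RNA of mice was sequenced in 15 libraries of 4 groups: LbNOX with ethanol gavage (M13 to M15), luciferase with ethanol gavage (M10 to M12), LbNOX with water gavage (M6 to M9) and luciferase with water gavage (M1 to M5). LbNOX is a water-forming NADH oxidase from Lactobacillus brevis that turns NADH into NAD+, luciferase is a reporter enzyme that serves as its control, and the livers were collected 6 h after gavage. The labels give LbNOX and luciferase as genotype, while the series' design text names wild-type or ChREBP mice, so whether any group also differed in ChREBP is not settled by them. Strain, sex, age, the way LbNOX was delivered and the promoter that drives it are not given in the sources used here. Whether each library is of a different animal is not stated by the labels, and p-values therefore measure only the spread between these libraries, which may be technical.

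Depth was 10.6 to 15.7 M reads in LbNOX ethanol livers, 12.2 to 14.4 M in luciferase ethanol livers, 13.7 to 20.6 M in LbNOX water livers and 14.5 to 23.7 M in luciferase water livers. Libraries M3 and M8 stood farthest from their own groups, with a median correlation to them of 0.928 and 0.938. Calls that were lost without both are named below. Summed hepatocyte markers (9 of 10 listed) spanned 657908 to 812602 normalized counts in LbNOX ethanol livers, 801523 to 995723 in luciferase ethanol livers, 556960 to 1053588 in LbNOX water livers and 720333 to 924247 in luciferase water livers. The red cell markers summed to 4861 to 10896 normalized counts in LbNOX ethanol livers, 8480 to 14195 in luciferase ethanol livers, 10711 to 16666 in LbNOX water livers and 11231 to 19042 in luciferase water livers. Pancreas and fat markers reached 7013 normalized counts in 1 LbNOX water library. The T and NK cell markers summed to at most 315 normalized counts in any library.

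Chaperones bind unfolded proteins and help them reach or keep their folded state. Hsp70 proteins do so in cycles of ATP use that J-proteins start and that nucleotide exchange factors, such as BAG and Hsp110 proteins, reset. Hsp90 completes the folding of kinases and nuclear receptors, the ring-shaped CCT complex folds actin and tubulin, and Hsp60 with Hsp10 folds proteins inside mitochondria. Under proteotoxic stress the heat shock factor Hsf1 binds heat shock elements, repeats of the unit nGAAn in alternating direction, and raises transcription of the inducible members.

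The promoters of 4 inducible members are shown because they hold matches to this element. Promoter windows of RefSeq (build GRCm38.p6), from 250 bases before to 50 bases after a start, were found for 61 of the 77 members, as 80 windows. They were searched on both strands for 2 inverted units, GAANNTTC or TTCNNGAA, and for runs of 3 alternating units, which hold overlapping matches to both forms. The pair of units was in 19 of 80 member windows (23.8%), against 15.1% of the 32851 windows of all genes. A run of 3 units was in 6 member windows (7.5%), those of Hspd1, Hspe1, Dnajb6 and Hsph1, against 0.603% of all windows. The windows of Dnajb6 overlap each other and hold the same run, as do those of Hsph1. Counted by gene, a run was in 4 of 61 members (6.56%), against 0.662% of all genes with a window. The 250 bases before each start are given 5′ to 3′ on the gene's strand, with the matches in capitals. They lie at chr5:135887669-135887918 on the plus strand for Hspb1, and on the minus strand at chr5:149636337-149636586 for Hsph1, at chr1:55087933-55088182 for Hspd1 and at chr17:34959239-34959488 for Hspa1b.
Hspb1: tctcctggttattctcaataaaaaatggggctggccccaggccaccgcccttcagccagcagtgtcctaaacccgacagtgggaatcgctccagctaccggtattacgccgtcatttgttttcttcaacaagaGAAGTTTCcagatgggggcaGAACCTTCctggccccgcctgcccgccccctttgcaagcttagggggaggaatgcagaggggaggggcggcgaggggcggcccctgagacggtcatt
Hsph1: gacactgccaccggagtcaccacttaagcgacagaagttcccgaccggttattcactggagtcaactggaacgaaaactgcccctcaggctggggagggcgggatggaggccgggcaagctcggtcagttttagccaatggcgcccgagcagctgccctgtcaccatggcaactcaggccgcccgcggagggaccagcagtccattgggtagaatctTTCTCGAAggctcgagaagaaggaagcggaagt
Hspd1: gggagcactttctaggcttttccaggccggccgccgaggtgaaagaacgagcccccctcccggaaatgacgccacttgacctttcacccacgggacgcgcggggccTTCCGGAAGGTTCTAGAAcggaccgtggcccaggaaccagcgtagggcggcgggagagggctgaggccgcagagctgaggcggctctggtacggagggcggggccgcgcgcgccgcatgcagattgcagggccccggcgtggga
Hspa1b: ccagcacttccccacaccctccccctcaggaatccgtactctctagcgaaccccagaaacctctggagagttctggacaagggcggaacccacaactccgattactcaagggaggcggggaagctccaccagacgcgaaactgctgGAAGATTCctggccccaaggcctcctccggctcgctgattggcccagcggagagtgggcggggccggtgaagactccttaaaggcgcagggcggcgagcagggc
The window of Hspd1 holds 3 overlapping matches, which make 1 block of capitals, and further matches of Hsph1 lie after its start. Hspd1 and Hspe1 are divergent neighbours whose starts lie 216 bases apart, so that block stands in the windows of both and is no independent match. The windows of Dnajb1, Hsf2, Bag5 and Hspa12a hold no match to these letters. Hspa8 and Hsp90aa1 were not searched, as no window was found for them. Among the members with a window that limma called with all 15 libraries, Hspb1 alone holds a match.

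Per kilobase of exon, averaged over the 15 libraries, the level of Hsp90ab1, the constitutive cytosolic Hsp90, was 6058 normalized counts, and that of Hspa8, the constitutive cytosolic Hsp70, was 5655. The level per kilobase was 4508 for Hspd1 (Hsp60), 3281 for Hsp90aa1 (the stress-inducible Hsp90), 3185 for Hspa9 (the mitochondrial Hsp70) and 1749 for Hspe1 (Hsp10). Each of these was above Cct2, a CCT subunit, at 1028 normalized counts per kilobase.

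In luciferase livers, ethanol was followed by lower RNA of the main cytosolic Hsp70, of its J-protein partner Dnajb1, of the inducible Hsp90 and Hsf2. RNA of the cochaperone Bag5 was higher. These were 4 members called lower (5.63% of the 71, against 3.13% of all 13570 genes) and 1 called higher (1.41%, against 4.62% of all genes), by limma with a Benjamini-Hochberg adjusted p below 0.05 over all genes. Of the 67 tested members that had counts in every library, 25 were above 0 and 42 below 0 on the log2 scale, with a median log2 fold change of -0.09, against 0.01 over all genes. In bulk tissue, fewer cells of a type and less RNA per cell cannot be told apart. All 8 tested T and NK cell markers and 7 of 8 Kupffer cell markers were also below 0 in this comparison, with medians of -0.96 and -0.41, as were 6 of 6 red cell (-0.46) and 6 of 8 endothelial markers (-0.24). Above 0 were 8 of 9 hepatocyte (median 0.23), 5 of 6 neutrophil (0.43), 4 of 5 cholangiocyte (1.61) and 6 of 6 pancreas and fat markers (0.88). Of these, 1 hepatocyte marker was called higher (limma adjusted p = 0.0223) and 1 T and NK cell marker lower (limma adjusted p = 0.0486). The part of the markers in these values was not tested.

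Hspa8 (chr9:40800984-40810087, plus strand, build mm10) had 15480, 15457 and 15876 normalized counts in luciferase ethanol livers, against 34720, 33727, 21068, 26385 and 26360 in luciferase water livers. The ethanol libraries lay within a narrow band below all 5 water libraries. Its log2 fold change was -0.84 (SE 0.20, limma adjusted p = 0.0190). Exons of Hspa8 share up to 90 bases each with the small nucleolar RNA genes Snord14c, Snord14d and Snord14e on the same strand, of 4301 bases in all.

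Hsp90aa1 (chr12:110690605-110702728, minus strand) had 8228, 8392 and 9761 normalized counts in luciferase ethanol livers, against 18908, 15800, 14070, 11744 and 11777 in luciferase water livers. Again no ethanol library reached the lowest water library, and the log2 fold change was -0.70 (SE 0.20, limma adjusted p = 0.0471). The second cytosolic Hsp90 gene, Hsp90ab1, averaged 14779 ± 334 normalized counts in luciferase ethanol livers and 18645 ± 2094 in luciferase water livers (SD, n = 3 and 5). Its log2 fold change of -0.33 did not pass (limma adjusted p = 0.212).

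Dnajb1 (chr8:83608193-83612653, plus strand), which delivers substrates to Hsp70 and stimulates its ATPase, had 359, 386 and 398 normalized counts in luciferase ethanol livers, against 760, 598, 411, 544 and 551 in luciferase water livers. The groups did not overlap, by a narrow margin at the water library M3, and the log2 fold change was -0.56 (SE 0.15, limma adjusted p = 0.0372). Hsf2 (chr10:57486385-57513135, plus strand), a heat shock factor that can form trimers with Hsf1, had 186, 250 and 183 normalized counts in luciferase ethanol livers, against 390, 407, 413, 221 and 397 in luciferase water livers. One water library, M4, lay among the ethanol values, so these groups overlapped. The log2 fold change of Hsf2 was -0.80 (SE 0.21, limma adjusted p = 0.0319).

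Bag5 (chr12:111709488-111713257, minus strand), a BAG protein with several BAG domains that acts on Hsp70, had 390, 386 and 390 normalized counts in luciferase ethanol livers, against 254, 287, 210, 285 and 287 in luciferase water livers. All 3 ethanol libraries were above all 5 water libraries, and the log2 fold change was 0.56 (SE 0.13, limma adjusted p = 0.0160).

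Without M10 or without M12 no member was called lower in luciferase livers. Without M1, M2 or M11 the number was 1, and without M3, M5, M6 or M7, or without both M3 and M8, it was 2. Hspa8 lost its call without M10, M11 or M12, and Bag5 without M10 or M12 and also when only the groups compared were fitted. Hsf2 and Hsp90aa1 lost theirs without M3, and also without both M3 and M8. Over 25 alternatives, Bag5 and Hspa8 kept their calls in 22 each, Hsf2 in 17, Dnajb1 in 15 and Hsp90aa1 in 10, and none of them changed direction. Without M3, 2 members were called higher. Shares of all genes are not given for these alternative fits, so their counts show only whether calls held.

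**Figure D1:**
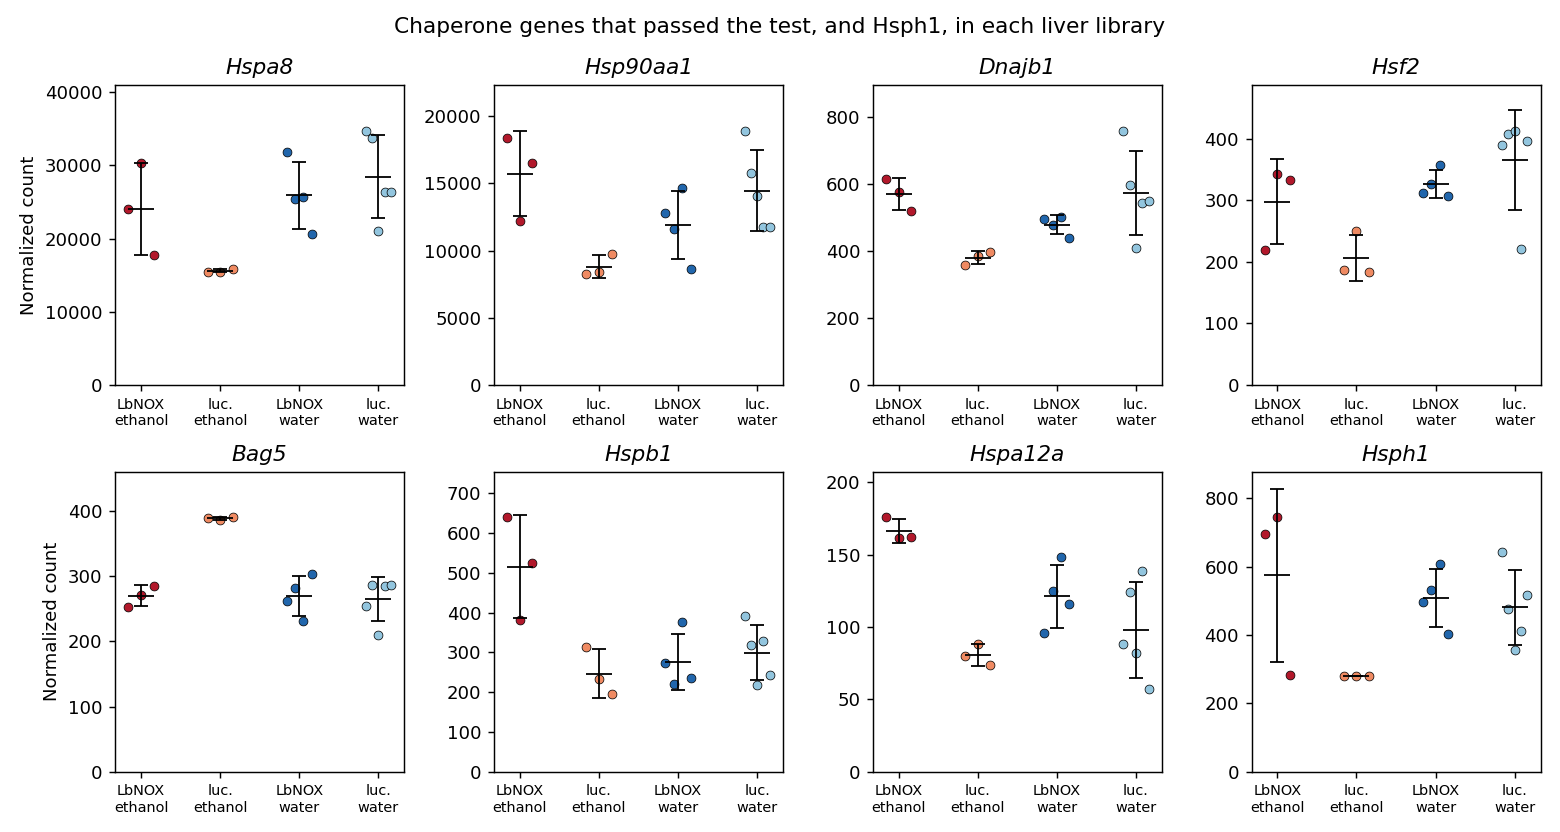
Normalized counts (linear axes from 0) of the 7 chaperone genes called in any comparison, and of Hsph1, in the 15 liver libraries; points are libraries, the long bar is the group mean and the whiskers are 1 SD. Hspa8, Hsp90aa1, Dnajb1 and Hsph1 are lower in the 3 luciferase ethanol libraries than in every luciferase water library, and Bag5 is higher. Hsph1 was not called in that comparison.

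In LbNOX livers no member passed the test after ethanol by limma or by edgeR's quasi-likelihood test, where 0.00737% of all genes did by either. At an unadjusted p below 0.05 there were 10 members (14.1%, against 11.6% of all genes), 6 above 0 and 4 below 0. DESeq2 called 4 of 69 members (5.8%, against 2.13% of all genes), 1 higher and 3 lower. Among the 67 members with counts in every library, 37 were above 0 and 30 below 0, with a median log2 fold change of 0.03, against -0.004 over all genes.

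The 3 members with the smallest p in LbNOX livers were Dnajc22, Hspb1 and Dnajb12. Dnajc22, a membrane J-protein, averaged 1173 ± 34.3 normalized counts in LbNOX ethanol livers and 1561 ± 144 in LbNOX water livers (SD, n = 3 and 4), a log2 fold change of -0.41 (limma adjusted p = 0.119). Hspb1, the small heat shock protein Hsp27 that holds unfolded proteins without using ATP, had 639, 383 and 526 normalized counts in LbNOX ethanol livers, against 273, 221, 377 and 236 in LbNOX water livers. The groups did not overlap, though M14 of the ethanol group and M8 of the water group nearly met, and the log2 fold change was 0.90 (limma adjusted p = 0.172). Dnajb12, a J-protein of the ER membrane, averaged 1135 ± 75.3 normalized counts in LbNOX ethanol livers and 1458 ± 56.6 in LbNOX water livers (SD, n = 3 and 4), a log2 fold change of -0.36 (limma adjusted p = 0.182). In this comparison 6 of 6 neutrophil (median 1.98), 4 of 5 cholangiocyte (0.32) and 5 of 8 endothelial markers (0.10) were above 0. Below 0 were 6 of 6 red cell (-0.51), 5 of 6 pancreas and fat (-1.34), 5 of 8 T and NK cell (-0.37) and 5 of 9 hepatocyte markers (-0.12). None of these markers passed, and what they add to these values was not tested.

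After ethanol, LbNOX livers held more RNA of 3 members than luciferase livers. Hspb1, Hspa12a and Hsp90aa1 were called higher (4.23% of members, against 2.24% of all genes) and Bag5 lower (1.41%, against 3.82% of all genes). This comparison shares its 3 luciferase ethanol libraries with the comparison of ethanol and water in luciferase livers.

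Hspb1 (chr5:135887919-135889563, plus strand) had 639, 383 and 526 normalized counts in LbNOX ethanol livers, against 313, 233 and 194 in luciferase ethanol livers. Each LbNOX library was above each luciferase library, and the log2 fold change was 1.06 (SE 0.27, limma adjusted p = 0.0310). Its promoter holds a pair of matches to the heat shock element, shown above. Hspa12a (chr19:58795750-58943654, minus strand), a distant relative in the Hsp70 family, had 176, 161 and 162 normalized counts in LbNOX ethanol livers, against 80, 89 and 74 in luciferase ethanol livers. The groups were well apart, with a log2 fold change of 1.04 (SE 0.28, limma adjusted p = 0.0391). Its exons share 166 of 9192 bases with Eno4 on the other strand, and reads there could not be told apart if the counting ignored strand.

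Hsp90aa1 had 18368, 12222 and 16509 normalized counts in LbNOX ethanol livers, against 8228, 8392 and 9761 in luciferase ethanol livers. The lowest LbNOX value exceeded the highest luciferase value, and the log2 fold change was 0.82 (SE 0.22, limma adjusted p = 0.0442). Bag5 had 253, 271 and 285 normalized counts in LbNOX ethanol livers, against 390, 386 and 390 in luciferase ethanol livers. No LbNOX library reached the luciferase values, and the log2 fold change was -0.53 (SE 0.15, limma adjusted p = 0.0465).

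The number called higher was 0 without M11, M12 or M13. It was 1 without M7 or M10, where Hspb1 was left, and 1 without M15, where the 3 named genes lost their calls and Hsph1 was called. Bag5 was not called lower without M1, M2, M6 or M7, or without any 1 of the 6 ethanol libraries. Without M5, 2 members were called lower. No share of all genes is given for the fits without 1 library, so their counts show only whether calls held. Over 25 alternatives, Hspb1 kept its call in 20, Hspa12a in 17, Hsp90aa1 in 15 and Bag5 in 12, with no change of direction. DESeq2 called 7 of 69 members higher (10.1%, against 4.29% of all genes) and 3 lower (4.35%, against 5.68% of all genes). The summed neutrophil markers (6 of 8 listed) spanned 185 to 715 normalized counts in LbNOX ethanol livers and 162 to 283 in luciferase ethanol livers, and 6 of 6 tested were above 0 with a median log2 fold change of 0.89. All 8 tested Kupffer cell markers (median 0.44), 6 of 8 endothelial markers (0.40) and 6 of 8 T and NK cell markers (0.56) were also above 0. Of the hepatocyte markers 8 of 9 were below 0 (median -0.44), as were 4 of 5 cholangiocyte (-1.36), 5 of 6 red cell (-0.38), 5 of 6 pancreas and fat (-1.17), 6 of 8 stellate cell (-0.26) and 3 of 3 B and plasma cell markers (-0.44). None of these marker genes passed the test, and their part in these differences was not tested.

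Hspa8, Dnajb1 and Hsph1 did not pass this comparison. Hspa8 had 24051, 30372 and 17761 normalized counts in LbNOX ethanol livers, each above the 3 luciferase ethanol libraries, with a log2 fold change of 0.59 (95% interval 0.11 to 1.07, limma adjusted p = 0.142). Dnajb1 had 616, 578 and 520 normalized counts in LbNOX ethanol livers, also above all 3 luciferase ethanol libraries, with a log2 fold change of 0.58 (95% interval 0.22 to 0.95, limma adjusted p = 0.0603). Hsph1 (chr5:149614287-149636376, minus strand), the Hsp110 nucleotide exchange factor of Hsp70, had 697, 744 and 283 normalized counts in LbNOX ethanol livers, against 281, 281 and 282 in luciferase ethanol livers. Thus M15 stood with the luciferase libraries while M13 and M14 were well above them. The log2 fold change of Hsph1 was 0.91 (95% interval 0.26 to 1.55, limma adjusted p = 0.0956). All luciferase water libraries, at 356 to 643 normalized counts of Hsph1, were also above the 3 luciferase ethanol libraries, though it was not called there.

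After water, LbNOX and luciferase livers were not told apart by any member. No member passed by limma or edgeR, where 0% of all genes did by either, and none had an unadjusted p below 0.05, against 3.24% of all genes. DESeq2 called none of 69 members, against 0.133% of all genes. The 3 members with the smallest p were Hspa1b at a log2 fold change of -0.45, Hspa13, an Hsp70 relative of microsomes, at -0.34, and Dnajc2, a J-protein of the ribosome, at -0.20. Each had a limma adjusted p of 1.0.

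The difference between the ethanol effects of LbNOX and luciferase livers was tested directly in the same fit. No member passed by limma, against 1.67% of all genes, or by edgeR, against 1.62%. At an unadjusted p below 0.05 there were 8 members (11.3%, against 14.6% of all genes), 5 above 0 and 3 below 0. DESeq2 called 3 of 69 (4.35%, against 4.68% of all genes). The difference was 1.10 for Hsp90aa1 (SE 0.29, 95% interval 0.48 to 1.72, limma adjusted p = 0.0736), 0.81 for Dnajb1 (95% interval 0.34 to 1.28, limma adjusted p = 0.0847) and 1.17 for Hspb1 (95% interval 0.44 to 1.91, limma adjusted p = 0.110), all on the log2 scale. Hspa8 differed by 0.72 (95% interval 0.10 to 1.34, limma adjusted p = 0.255) and Bag5 by -0.55 (95% interval -0.96 to -0.15, limma adjusted p = 0.169). Without M3 and M8, Dnajb1 (0.95), Hsp90aa1 (1.21) and Hspb1 (1.44) were called (4.23% of members, against 2.82% of all genes). Without M8 alone the number was 2, and without M3 alone it was 1, with no share of all genes given for either fit. For this difference 6 of 6 neutrophil (median 1.11), 7 of 8 Kupffer cell (0.45) and 7 of 8 T and NK cell markers (0.77) were above 0. Below 0 were 7 of 9 hepatocyte (-0.51), 4 of 5 cholangiocyte (-1.29) and 5 of 6 pancreas and fat markers (-2.68). None of these markers passed, and what they add to the difference was not tested.

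The 11 heat-shock-inducible members, the targets that Hsf1 is best known for, were Hspa1a, Hspa1b, Hspa8, Hsph1, Hspb1, Hsp90aa1, Dnajb1, Dnaja1, Bag3, Hspd1 and Hspe1. In LbNOX livers 0 of 11 passed after ethanol (0.00737% of all genes did), 9 lay above 0, against 49.5% of all genes, and the median log2 fold change was 0.25, or 0.15 without M14. With a filter of 50, which leaves out Hspa1a, the median was 0.16 over 10 genes. In luciferase livers 3 of 11 fell after ethanol and none rose, where 3.13% of all genes fell and 4.62% rose. Of the 11, 10 lay below 0, against 49.4% of all genes, and the median log2 fold change was -0.25, or -0.38 without M3. The difference of the ethanol effects was above 0 for 11 of 11, with a median of 0.62, or 0.35 without M14, where 49.5% of all genes lay above 0 and their median was -0.01. None of the 11 differences passed the test. Between LbNOX and luciferase livers, 10 of the 11 lay above 0 after ethanol, against 50.3% of all genes, with a median of 0.28. After water 8 of the 11 lay below 0, against 48.2% of all genes, with a median of -0.13. The difference of the ethanol effects takes in both, the water groups included. These genes share their libraries and some of them vary together between libraries, so the 11 are not 11 independent observations. The list was chosen with earlier results of these data known, and it holds Hspa8, described above as constitutive. Its sign counts are therefore no test of a set named beforehand.

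**Figure D2:**
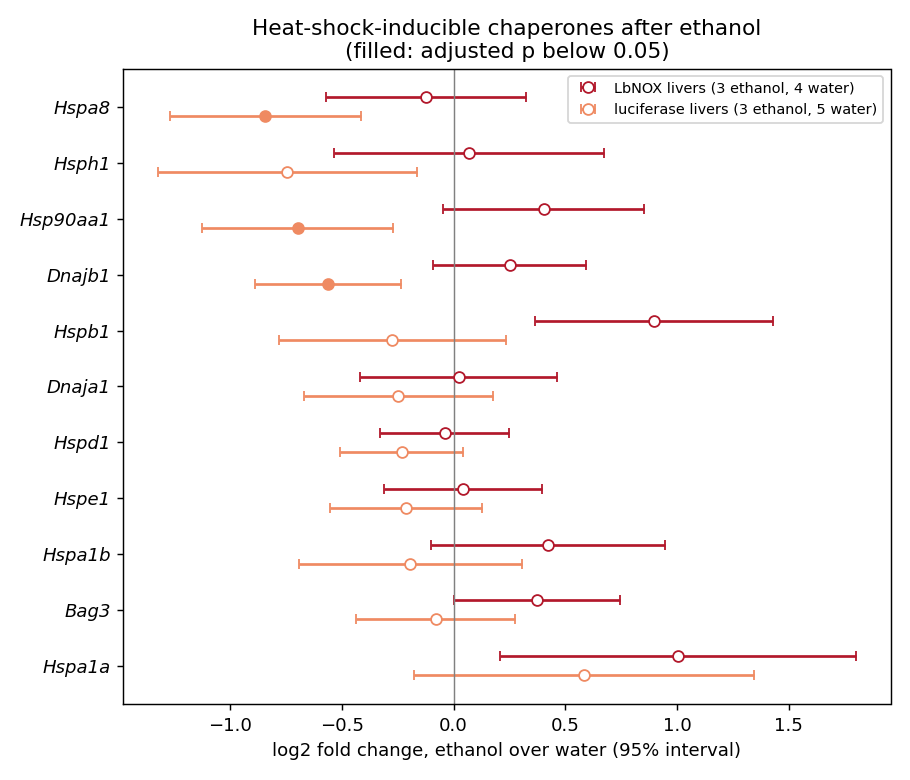
Log2 fold change of ethanol over water for the 11 heat-shock-inducible chaperones in LbNOX livers (3 ethanol, 4 water) and luciferase livers (3 ethanol, 5 water), with 95% intervals from limma; filled points have an adjusted p below 0.05. Each LbNOX point lies to the right of the luciferase point of the same gene, and the filled points are Hspa8, Hsp90aa1 and Dnajb1 in luciferase livers.

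The strictly inducible Hsp70 genes Hspa1a and Hspa1b did not pass in any comparison. Their longest open reading frames are 99.6% identical, with 8 of 1926 aligned bases different, so the split of reads between them is uncertain and their sum is given. It was 441, 780 and 466 normalized counts in LbNOX ethanol livers, 603, 443 and 445 in luciferase ethanol livers, 406, 355, 426 and 401 in LbNOX water livers and 622, 703, 337, 597 and 536 in luciferase water livers. The sums of all LbNOX water libraries lay below those of both ethanol groups, while the luciferase water libraries overlapped every other group, and 1 LbNOX ethanol library, M14, was above the rest. Bag3, an inducible cochaperone of selective autophagy, averaged 1044 ± 198 normalized counts in LbNOX ethanol livers, 855 ± 140 in luciferase ethanol livers, 798 ± 79.2 in LbNOX water livers and 906 ± 160 in luciferase water livers (SD, n = 3, 3, 4 and 5). Its ranges overlapped in luciferase livers, where the log2 fold change after ethanol was -0.08 (95% interval -0.44 to 0.28).

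Of the heat shock factors, Hsf1 was listed at 0 in 12 libraries and at 24.9 normalized counts in M13, 27.1 in M6 and 26.4 in M2. A gene of general use at 0 can be a failed estimate, so no fold is given for it. Likewise Hspa2 was at 0 in 12 libraries, Dnajb2 in 4 and Dnajc14 in 3.

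No mitochondrial chaperone was called after ethanol. Of 8 tested, Hspd1, Hspe1, Hspa9, the Hsp70 partner Dnaja3, the import J-proteins Dnajc15 and Dnajc19, Dnajc11 of the inner membrane organizing system and Dnajc30, none passed in any comparison. The median log2 fold change after ethanol was -0.04 in LbNOX livers and 0.01 in luciferase livers. Hspa9 averaged 14316 ± 1593 normalized counts in LbNOX ethanol livers, 13190 ± 842 in luciferase ethanol livers, 13948 ± 1481 in LbNOX water livers and 13523 ± 1741 in luciferase water livers (SD, n = 3, 3, 4 and 5). Its log2 fold change in luciferase livers was -0.03, with a 95% interval of -0.32 to 0.26. Hspd1 averaged 12224 ± 412 normalized counts in LbNOX ethanol livers, 10288 ± 847 in luciferase ethanol livers, 12596 ± 1028 in LbNOX water livers and 12149 ± 1599 in luciferase water livers (SD, n = 3, 3, 4 and 5). In luciferase livers its log2 fold change was -0.23 (95% interval -0.51 to 0.04), and that of its neighbour Hspe1 was -0.21 (95% interval -0.55 to 0.13). The exons of Hspd1 and Hspe1, of 2642 and 1474 bases, share 112 bases on opposite strands. Reads there could not be told apart if the counting ignored strand. Over the 8 genes the 95% intervals in luciferase livers ran from -0.55 to 0.71.

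The 6 tested CCT subunits, Cct2, Cct3, Cct4, Cct5, Cct7 and Cct8, likewise gave no call in any comparison. The median log2 fold change after ethanol was 0.00 in LbNOX livers and -0.10 in luciferase livers, and the 95% intervals in luciferase livers ran from -0.44 to 0.21. Cct5 averaged 2570 ± 143 normalized counts in LbNOX ethanol livers, 2714 ± 42.0 in luciferase ethanol livers, 2513 ± 122 in LbNOX water livers and 2705 ± 250 in luciferase water livers (SD, n = 3, 3, 4 and 5).

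**Figure D3:**
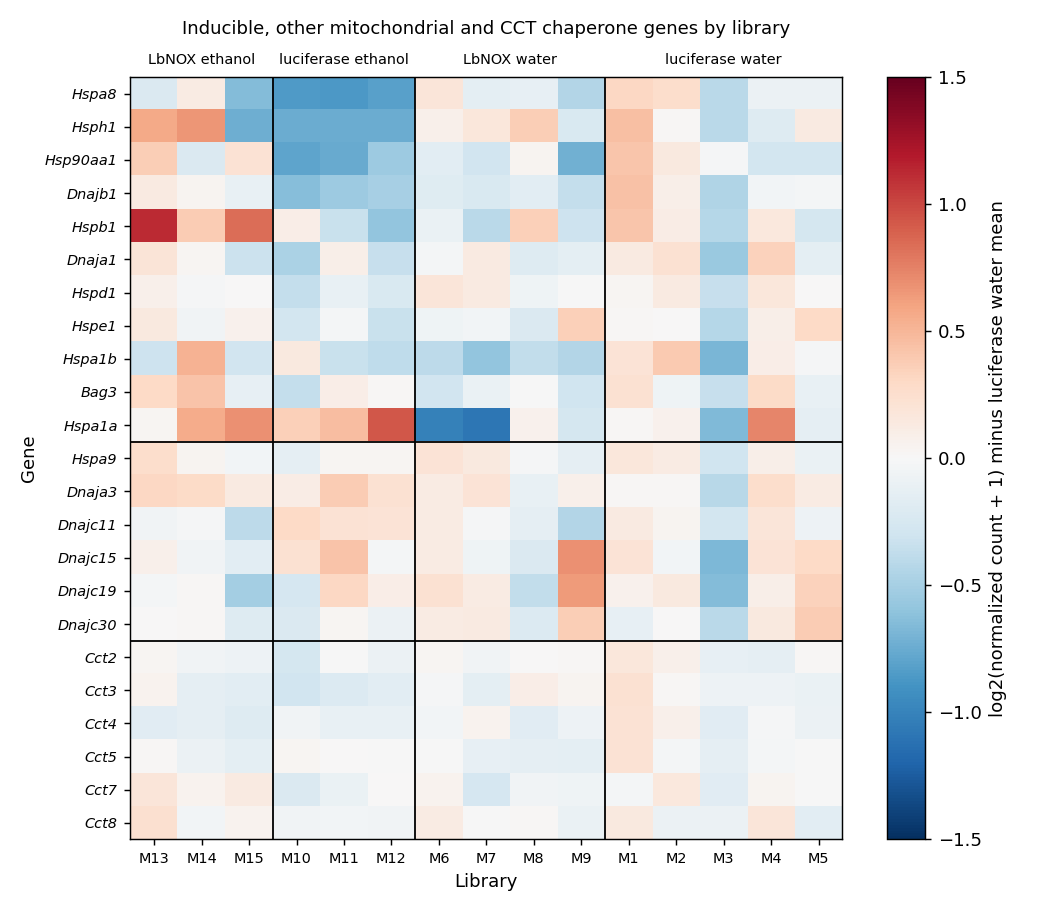
Inducible (upper block), other mitochondrial (middle) and CCT (lower) chaperone genes in each of the 15 libraries, as log2(normalized count + 1) minus the mean of the luciferase water group. The luciferase ethanol libraries are blue for Hspa8, Hsph1, Hsp90aa1 and Dnajb1, and the CCT rows stay pale. Library M3 is below its group mean in every row shown, the CCT rows included.

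Among the BAG cochaperones, Bag5 was the 1 of 6 that passed. Bag2, which inhibits the ubiquitin ligase CHIP, had 159, 107 and 96.7 normalized counts in LbNOX ethanol livers, against 68.2, 53.9, 78.5 and 80.6 in LbNOX water livers. Its counts were 85.9, 150 and 163 in luciferase ethanol livers, against 90.5, 83.6, 49.9, 73.9 and 53.0 in luciferase water livers. All LbNOX ethanol libraries were above the LbNOX water libraries, while 1 luciferase ethanol library, M10, lay within the water values. The log2 fold change was 0.76 in LbNOX livers (limma adjusted p = 0.328) and 0.90 in luciferase livers (limma adjusted p = 0.0593), and the difference between them was -0.14 (95% interval -0.99 to 0.70).

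**Figure D4:**
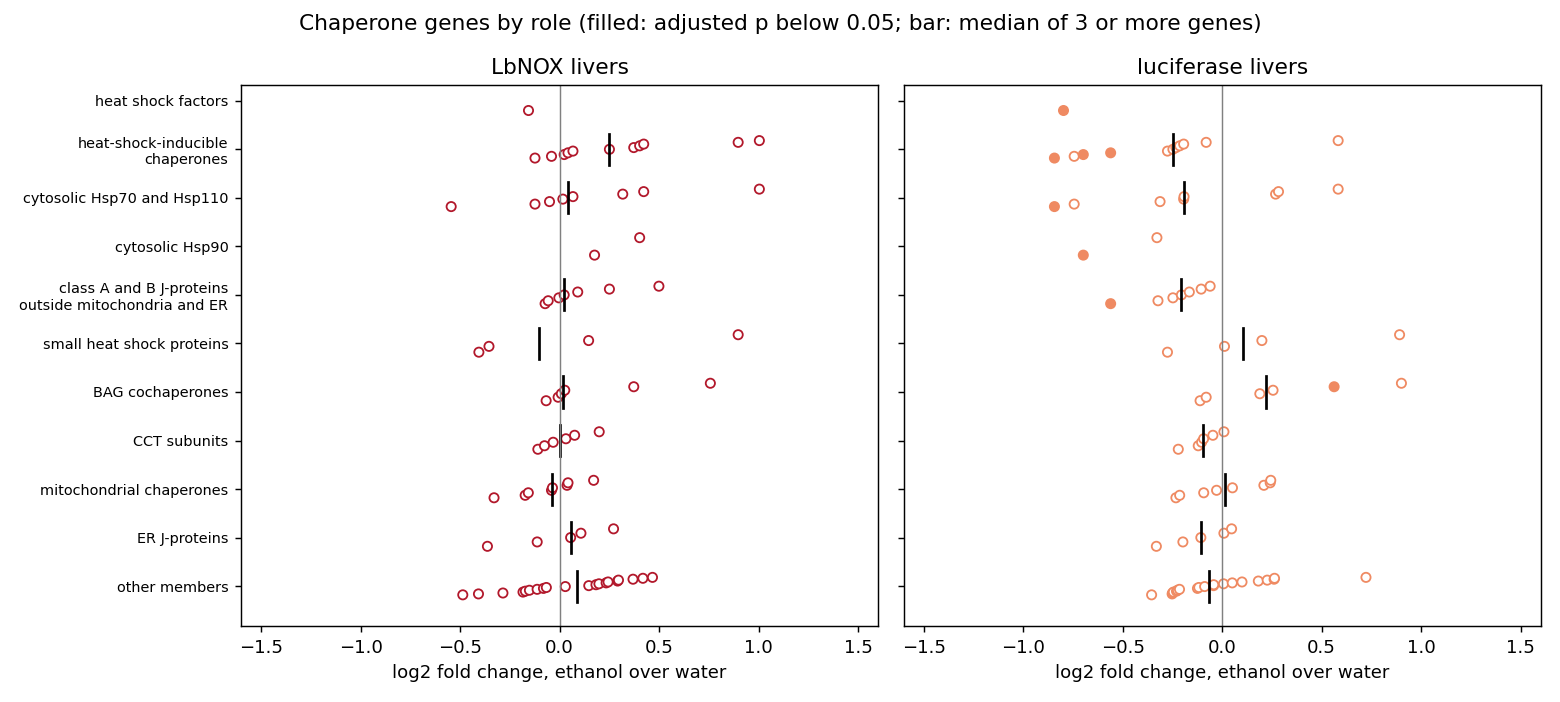
Log2 fold change of ethanol over water for each tested member in LbNOX livers (left) and luciferase livers (right), grouped by role; members listed at 0 in some libraries are left out, a gene can stand in more than 1 group, filled points have an adjusted p below 0.05 and the bar is the median. The filled points are Hsf2, Hspa8, Hsp90aa1, Dnajb1 and Bag5 in luciferase livers, and none is filled in LbNOX livers.

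Between libraries of the same group, Hspa8 and Dnajb1 varied together. After removal of group means, Pearson's r over the 15 libraries was 0.751 (exact permutation within groups, two-sided, p = 0.00256, adjusted over 4 pairs p = 0.0102) and Spearman's rho was 0.821 (exact permutation p = 0.00353, adjusted p = 0.0141). Without M3 and M15, the libraries farthest from the median of Hspa8, r was 0.618. The pair Hspd1 and Hspe1 gave r = 0.545 and rho = 0.371 (exact permutation p = 0.122 and 0.232, adjusted 0.245 and 0.295), and r was 0.170 without M3 and M4. The pair Hspa1a and Hspa1b gave r = 0.367 and rho = 0.314 (exact permutation p = 0.200 and 0.246, adjusted 0.266 and 0.295), and r was 0.116 without M3 and M4. Hsp90aa1 and Hsph1 gave r = 0.222 and rho = 0.343 (exact permutation p = 0.553 and 0.295, adjusted 0.553 and 0.295), and r was -0.0517 without M1 and M9.

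Of 38 tested genes of the wider chaperone machinery that are no members, 4 fell and 1 rose after ethanol in luciferase livers (3.13% and 4.62% of all genes did), and none passed in LbNOX livers. The 4 were Chordc1, an Hsp90 cochaperone, at a log2 fold change of -0.74 (limma adjusted p = 0.00978), the polyubiquitin gene Ubb at -0.59 (adjusted p = 0.0127), the nucleotide exchange factor Grpel2 of mitochondria at -0.42 (adjusted p = 0.0234), and Stip1, the adaptor between Hsp70 and Hsp90, at -0.51 (adjusted p = 0.0341). Unc45a, a myosin chaperone that binds Hsp90, rose by 1.02 (limma adjusted p = 0.0140). After ethanol, Stip1 (0.61, limma adjusted p = 0.0314) and Ubb (0.56, adjusted p = 0.0367) were higher in LbNOX than in luciferase livers (2.24% of all genes were), and Hsf4, a heat shock factor best known from the lens, was lower (-1.02, adjusted p = 0.0408; 3.82% of all genes were). For the 15 tested ER chaperones, which are set apart from the members, 3 fell in luciferase livers (3.13% of all genes did) with a median of -0.26, and none passed in LbNOX livers, where the median was 0.10. Their difference between the ethanol effects had a median of 0.34, with none of 15 passing.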

How the data were processed

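Liver RNA of 15 mouse libraries was, per the labels' protocols, extracted with an RNeasy kit and made into libraries with KAPA mRNA HyperPrep. The authors deposited 1 gene table of normalized counts, a signal that is a read count divided by a library's size factor. Salmon 1.5.1, the mm10 build and DESeq2 1.30.1 stand in the submitters' processing notes, with no role given. Values of each library are whole multiples of 1 step: all 244950 values came within 0.001 of whole reads, which gave the depths and the reads for the count tests. Depth was 10.6 to 23.7 M reads.

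Log2(normalized count + 1) of the 13570 genes with at least 10 normalized counts in at least 3 libraries was fitted with limma 3.58.1 (R 4.3.3), with trend and robust variances, as 4 groups. Fold changes are on this scale, which understates those of low genes. The 5 contrasts were tested, with Benjamini-Hochberg adjustment over all genes and calls at 0.05. The test was also run on simulated data, the outcome of which is not given here. Alternatives were DESeq2 1.42.0 and edgeR 4.0.16 quasi-likelihood tests of those reads, quantile normalization, plain variances, pseudocounts of 0.5 and 5, no filter and a filter of 50, fits of the groups compared alone, and fits without each library or without M3 and M8. Members, gene lists and the doubt about M3 and M8 were chosen with earlier results of these data known. Named are members called in any comparison, tested members of 5 role lists, the 3 smallest p-values where none passed, and called genes of the wider machinery. Positions come from GENCODE vM21 (mm10), and all 77 members were placed.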

Additional observations from a re-analysis of the deposited data

Results flagged for a closer look

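Within groups of 4 or 5 libraries, 35 members were screened in 70 groups of values for a single library far from the rest, which by chance flags about 1 in 20, and 3 were found. Bag1, a nucleotide exchange factor of Hsp70, had 893 normalized counts in M9, against 475 to 543 in the other LbNOX water libraries. Cct5 had 2695 normalized counts in M6, against 2439 to 2468 in the other LbNOX water libraries. Hsf2 had 221 normalized counts in M4, against 390 to 413 in the other luciferase water libraries.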

How the results depend on the processing

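No paired analysis was possible because the columns of the table carry no replicate numbers. Of 4335 single-gene values under alternatives, 4216 kept their side of the threshold and, where not called, moved by no more than their error. Values that were not called could still change sign. Between LbNOX and luciferase after water, 7 of 8 mitochondrial chaperones lay above 0, but 4 of 8 with quantile normalization. Of the other values, 75 lost a call, 29 gained one, and 15 that were not called moved by more than their error. Among these 15 was Hsp90ab1 between LbNOX and luciferase after ethanol (0.70 with quantile normalization). No call was reversed. In luciferase livers after ethanol, 2 members were called higher by DESeq2 and without M3 and M8, and 0 when only the groups compared were fitted (leaving out 1 library, 0 to 2). The number lower was 2 with plain variances and without M3 and M8, and 1 when only the groups compared were fitted (leaving out 1 library, 0 to 4). In LbNOX livers DESeq2 called 1 higher and 3 lower (5.8% of members in all, against 2.13% of all genes), and 1 was lower without M3 and M8. Between LbNOX and luciferase after ethanol, DESeq2 called 7 higher and 3 lower, against 4.29% and 5.68% of all genes (leaving out 1 library, 0 to 4 higher and 0 to 2 lower). The number lower was 0 with quantile normalization or no filter, and 2 with a pseudocount of 0.5 and without M3 and M8. For the difference of the ethanol effects, 3 were higher by DESeq2 and without M3 and M8 (leaving out 1 library, 0 to 2). In either direction, 4.68% of all genes were called by DESeq2 and 2.82% without M3 and M8. The cause of these shifts was not tested. Where no share of all genes stands beside a count, that count is no result about the members. The median inducible difference ran from 0.35 to 0.81 over the alternatives, and that in luciferase livers from -0.38 to -0.19. The correlation of Hsp90aa1 and Hsph1 was -0.0517 without M1 and M9. The number of libraries, 3 in each ethanol group, and their depth both limit the precision.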
